A study of Homo sapiens with 18 samples.

Results

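The collagen chain genes were the rows of the expression table whose gene symbol reads COL, a number, A and a number, with 44 genes measured by 46 probes among the 19289 gene symbols and 21111 probes of the table. COL3A1 and COL11A2 had 2 probes each, and for these genes the probe with the higher mean over the 18 libraries is used unless the other is named. The 44 chains comprised 11 fibrillar chains, 6 chains of type IV, 5 of type VI, 3 of types VIII and X, 10 fibril-associated chains (FACITs), 4 transmembrane chains, 2 multiplexins, the type VII chain and 2 others. The libraries came from 3 TNBC cell lines, which are established human breast cancer lines: BT549 and Hs578T, which the study describes as mesenchymal-like, and SUM149PT, which it describes as basal-like. Each line was transfected with 50 nM of a pool of siRNAs against ASAP1 (siASAP1) or with control siRNA (siCtrl) and lysed after 72 h, with 3 libraries for each of the 6 groups, and no group was left untransfected. ASAP1 encodes a GTPase-activating protein for the small GTPase Arf. TempO-Seq ligates a pair of detector oligos on each target RNA and counts the ligated product, so a value reflects a short target site and not the length of the transcript. Probes capture their targets with different efficiency, and levels are therefore compared for the same probe between libraries and not between genes.

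Collagens are extracellular matrix proteins built from trimers of alpha chains, each chain encoded by its own gene. Fibrillar collagens such as types I, III and V form the tensile fibrils of connective tissue and are made mainly by fibroblasts and other mesenchymal cells, whereas type IV chains build the network of basement membranes beneath epithelia. Type VI chains form beaded filaments around cells, FACITs decorate fibril surfaces, multiplexins sit at basement membranes, and transmembrane collagens are held in the plasma membrane. In breast tumors most fibrillar collagen is laid down by stromal fibroblasts, and cancer cells with mesenchymal features can express these genes themselves. Before secretion the chains are hydroxylated, folded and exported as procollagen, and after secretion their propeptides are removed and the fibrils are cross-linked by lysyl oxidases.

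The libraries held 4.63 to 12.5 M reads (median 6.63 M), and a single read was worth 0.578 to 1.6 normalized counts. The targeted gene ASAP1 had normalized counts of 1107, 966 and 944 in the siCtrl libraries of BT549 and 367, 729.7 and 783 in its siASAP1 libraries. In Hs578T the values were 1641, 1414 and 2697 after siCtrl and 782, 825 and 1261 after siASAP1. In SUM149PT the siASAP1 libraries had 282, 468 and 184, and the siCtrl libraries had 1087, 189 and 1314. The ASAP1 value of the library labelled SUM149PT siCtrl replicate 2 lay among the siASAP1 values of that line and so went against its label, and results that rest on this library are given with and without it. The marker genes of the lines mostly followed their descriptions. Of 9 listed epithelial markers 7 were tested, and 7 of 7 were called higher in SUM149PT than in either other line. Of all tested probes, 9.40% were called higher than in BT549 and 9.64% than in Hs578T. The keratins KRT5 and KRT14 did not pass the filter on low counts. Of 8 tested mesenchymal markers, 8 were called lower in SUM149PT than in Hs578T (10.5% of all tested probes). Against BT549, 5 were lower and CDH2 was higher (8.76% and 9.40% of all tested probes). Without that library, 7 of 7, 6 of 8 and 5 of 8 were called in these directions, and CDH2 was again higher. The share of all tested probes called in either direction was then 30.7% against Hs578T and 33.2% against BT549. With the library it was 20.2% and 18.2%. EPCAM, an epithelial adhesion molecule, had 31521, 20396 and 36679 normalized counts in SUM149PT siCtrl against 22.8, 10.6 and 23.6 in Hs578T siCtrl. Of 7 leukocyte and endothelial markers, only PECAM1 passed the filter on low counts, with 78.7, 103 and 51.2 in SUM149PT siCtrl, and the leukocyte marker PTPRC had 0 in 17 of the 18 libraries.

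At baseline, 24 of the 44 chains were expressed in at least 1 cell line, a chain being taken as expressed where its normalized counts averaged 10 or more over the siCtrl libraries of that line. Hs578T expressed 19 chains, BT549 15 and SUM149PT 13. A set of 8 chains was expressed in all 3 lines, namely COL1A1, COL4A1, COL5A1, COL6A1, COL6A3, COL12A1, COL16A1 and COL18A1. BT549 and Hs578T shared 5 further chains (COL1A2, COL3A1, COL4A6, COL5A2 and COL8A1), and Hs578T and SUM149PT shared 2 (COL13A1 and COL27A1). Expressed in Hs578T alone were COL4A2, COL6A2, COL17A1 and COL21A1, in SUM149PT alone COL4A3, COL4A4 and COL15A1, and in BT549 alone COL4A5 and COL28A1. Without the library labelled SUM149PT siCtrl replicate 2, SUM149PT again had 13 expressed chains, of which 11 were shared with the first set, since COL4A3 (mean 0) and COL15A1 (4.80) fell out and COL8A1 (10.8) and COL9A2 (12.6) came in. The share of all 21111 probes that met the same limit was 44.3% for BT549, 44.8% for Hs578T and 46.5% for SUM149PT. By class, 6 of 11 fibrillar chains, 6 of 6 type IV chains, 3 of 5 type VI chains and 3 of 10 FACITs were expressed in at least 1 line. The other 20 chains stayed under the limit in every line, and 6 of them (COL5A3, COL6A6, COL8A2, COL9A1, COL10A1 and COL19A1) had no read in any of the 18 libraries. COL10A1, the chain of hypertrophic cartilage, and COL9A1, a chain of the cartilage collagen type IX, were among these unread chains, and COL2A1, the main cartilage chain, had 10 reads in a single library.

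The share of all reads that fell on collagen probes separated the lines further than the number of chains did. Collagen probes took 1.23% to 1.41% of the reads of the Hs578T siCtrl libraries, 0.276% to 0.301% in BT549 siCtrl and 0.0532% to 0.117% in SUM149PT siCtrl. The ranges of the lines did not overlap. In Hs578T siCtrl the probes of COL6A3, COL1A2, COL1A1 and COL6A1 drew 38.0%, 32.5%, 14.2% and 7.94% of the collagen reads, in BT549 siCtrl those of COL1A2 and COL3A1 drew 61.3% and 16.9%, and in SUM149PT siCtrl that of COL12A1 drew 70.9%, or 52.3% without the library labelled replicate 2. These shares depend on probe efficiency and do not rank the transcripts.

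**Figure D1:**
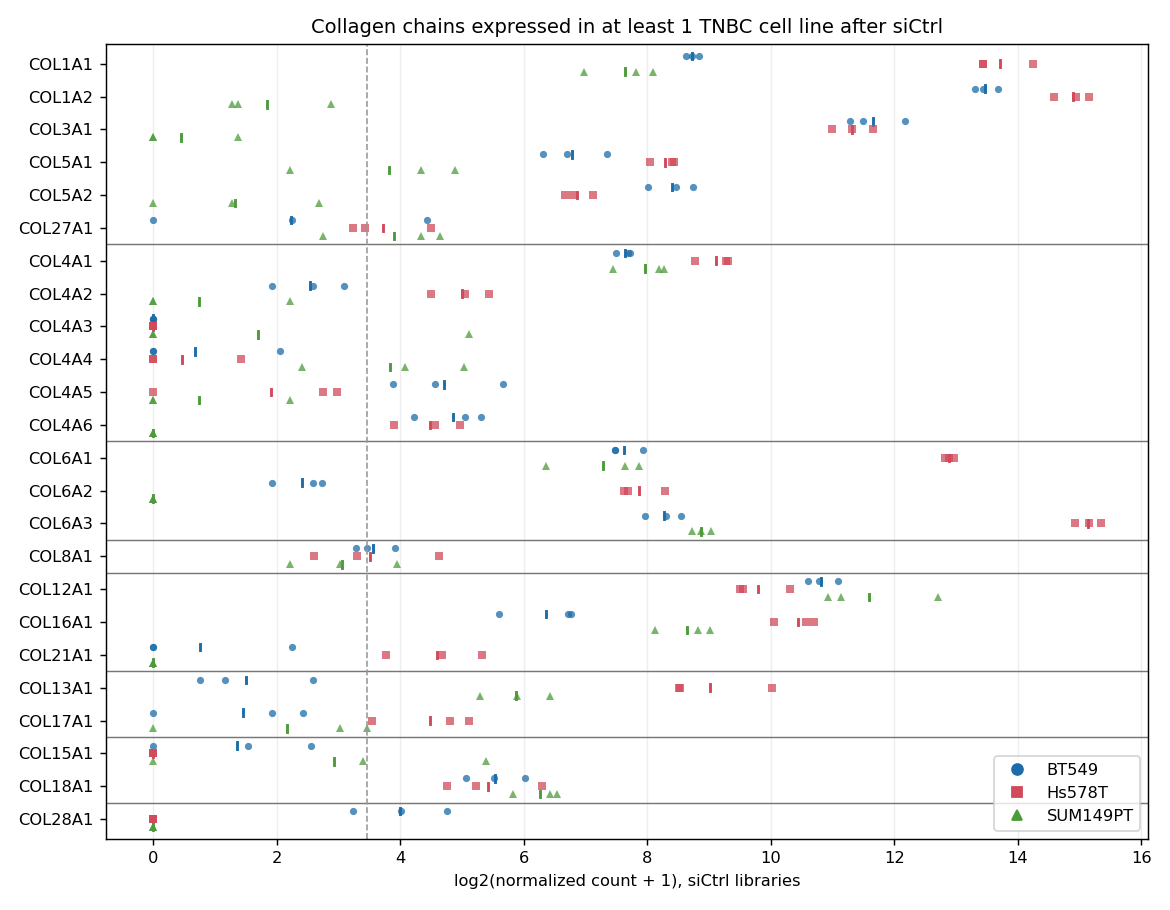
Level of the 24 collagen chains expressed in at least 1 TNBC cell line, grouped by class (grey lines). The x axis gives log2(normalized count + 1), each symbol is a siCtrl library, short bars are the means of the 3 libraries of a cell line, and the dashed line marks a normalized count of 10. COL6A1, COL6A3 and COL1A1 lie far to the right in Hs578T, and COL1A2 and COL3A1 lie near 0 in SUM149PT.

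The baseline differences between lines were tested with limma on the 9 siCtrl libraries, in which 19 chains averaged 10 or more and were tested. A chain near 0 in 1 line could thus be tested through its level in the others. Not tested with all 9 libraries were COL4A3, COL4A4 and COL15A1, expressed in SUM149PT alone, COL21A1 in Hs578T alone and COL28A1 in BT549 alone. The counts and medians below depend on this filter. A chain was called at an adjusted p under 0.05 with a Log2 FC beyond 1 in either direction. Between SUM149PT and Hs578T, 14 of the 19 tested chains were called, 13 of them lower in SUM149PT, where 20.2% of all tested probes were called (10.5% lower, 9.64% higher). Between BT549 and Hs578T, 7 chains were called, all of them lower in BT549, against 13.8% of all tested probes (7.58% lower, 6.26% higher). Between SUM149PT and BT549, 9 were called, 7 lower and 2 higher in SUM149PT, against 18.2% of all tested probes (8.76% lower, 9.40% higher). The libraries of the 2 lines did not overlap for 15, 14 and 11 of the 19 chains in this order of comparisons, and for 35.4%, 36.7% and 32.8% of all tested probes. The median Log2 FC of the tested chains was -4.26 for SUM149PT against Hs578T, -1.49 for BT549 against Hs578T and -0.49 for SUM149PT against BT549, and the medians of all tested probes lay at -0.00189, 0.0147 and -0.0416. Without the filter, 35 chains were tested. Between SUM149PT and Hs578T 16 were called, 14 lower and 2 higher, against 13.6% of all tested probes. For BT549 against Hs578T 10 were called (9 lower, 1 higher, against 9.28%), and for SUM149PT against BT549 11 (8 lower, 3 higher, against 12.3%). In a bulk lysate, fewer cells that carry a transcript and less of it in each cell cannot be told apart. Without the library labelled SUM149PT siCtrl replicate 2, 14, 14 and 10 chains were called for the same order of comparisons, of which 13, 7 and 9 were also called with it, and 30.7%, 21.3% and 33.2% of all tested probes were called. Between BT549 and Hs578T the 7 chains called without it and not with it were COL1A2, COL4A2, COL5A1 and COL21A1, lower in BT549, and COL4A5, COL5A2 and COL12A1, higher in BT549. Between SUM149PT and Hs578T, COL21A1 was called and COL4A1 was not, and between SUM149PT and BT549, COL4A2 was called in addition. Leaving out each of the 9 libraries in turn, COL4A1 kept its call in 5 of 9 fits for BT549 against Hs578T (lost without BT549 siCtrl replicate 2 or 3 or Hs578T siCtrl replicate 2 or 3) and in 0 of 9 for SUM149PT against Hs578T. For SUM149PT against Hs578T, COL12A1 and COL16A1 lost theirs without Hs578T siCtrl replicate 1 or 2, and COL4A2 without replicate 2. For SUM149PT against BT549, COL4A5 kept its call in 5 of 9 fits (lost without SUM149PT siCtrl replicate 1 or 3 or BT549 siCtrl replicate 2 or 3), COL5A1 lost it without BT549 siCtrl replicate 3 and COL6A2 without replicate 2, and the other called chains kept theirs in 9 of 9.

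Among the fibrillar chains, type I and type III followed different patterns over the lines. COL1A1, the alpha 1 chain of type I collagen, had 11159.7, 11072 and 19553 normalized counts in Hs578T siCtrl, 458, 424 and 394 in BT549 siCtrl and 226, 126 and 272 in SUM149PT siCtrl. The Hs578T libraries were far above the others, with a Log2 FC of -4.98 ± 0.37 (SE) for BT549 against Hs578T (limma, adjusted p = 3.22e-05). The BT549 values also lay above those of SUM149PT without overlap, but the difference was not called (Log2 FC -1.10 ± 0.37, adjusted p = 0.0732). COL1A2, the alpha 2 chain that joins COL1A1 in the usual type I heterotrimer, had 31381, 36460 and 24668 in Hs578T and 13167, 11056 and 10207 in BT549. These 2 groups did not overlap, and their Log2 FC of -1.42 ± 0.43 missed the adjusted limit (adjusted p = 0.0585, or 0.00223 without the library labelled SUM149PT siCtrl replicate 2). In SUM149PT the COL1A2 probe was read 1, 7 and 1 times in the siCtrl libraries, 9 reads in all, of which 7 came from the library labelled replicate 2. Its level was 8400.2 times higher in Hs578T (95% counting interval 4425 to 18370.5) and 3009.8 times higher in BT549 (1586 to 6582). The 2 reads left without that library give ratios of 20673 (5723 to 170701) and 7407 (2050.5 to 61162). SUM149PT therefore carried COL1A1 reads in every library with next to no COL1A2 reads.

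COL3A1, the only chain of type III collagen, had 4641, 2498 and 2875 normalized counts in BT549 siCtrl and 2553, 3221 and 2033 in Hs578T siCtrl. The 2 mesenchymal-like lines overlapped, with a Log2 FC of 0.33 ± 0.47 (limma, adjusted p = 0.722). In SUM149PT siCtrl the probe was read once in 3 libraries, which gives a ratio of 7482 for BT549 over SUM149PT with a 95% counting interval of 1343 to 295522 (4092, 734 to 161617, without the library labelled replicate 2). The second COL3A1 probe was not read at all in these libraries, and it was at least 166-fold higher in BT549 and at least 139-fold higher in Hs578T against a floor of 3 reads over the group (at least 90.6-fold and 75.9-fold without the library labelled replicate 2). COL5A1 and COL5A2, chains of the type V collagen that starts fibrils, had opposite orders in BT549 and Hs578T. COL5A1 had 336, 345 and 262 in Hs578T, 104, 78.6 and 161 in BT549 and 28.6, 3.64 and 19.2 in SUM149PT. COL5A2 had 101, 138 and 110.3, 258, 425 and 355 and 1.43, 5.47 and 0 in the same order of lines. SUM149PT was called lower than BT549 and Hs578T for COL5A1 (Log2 FC -2.98 and -4.48) and for COL5A2 (Log2 FC -7.08 and -5.54). BT549 and Hs578T did not overlap in either chain, and the opposite Log2 FCs of -1.50 ± 0.68 for COL5A1 and 1.55 ± 0.68 for COL5A2 were not called with all libraries (adjusted p = 0.196 and 0.184) and were called without the library labelled SUM149PT siCtrl replicate 2 (adjusted p = 0.0219 and 0.0463). COL27A1, a fibrillar chain of cartilage, was read at 5.72, 19.1 and 24 in SUM149PT, 8.44, 9.79 and 21.7 in Hs578T and 3.74, 20.8 and 0 in BT549, and the groups overlapped.

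Type VI collagen is assembled from the chains COL6A1, COL6A2 and COL6A3, and all 3 were highest in Hs578T. COL6A3 had 31098, 41692 and 36512 normalized counts in Hs578T siCtrl, 248, 374 and 316 in BT549 and 420.5, 526 and 468 in SUM149PT. Against Hs578T the change was -6.87 ± 0.29 for BT549 and -6.26 ± 0.29 for SUM149PT on the log2 scale (limma, adjusted p = 2.12e-06 and 1.16e-06), the smallest adjusted p of any chain in the first comparison. SUM149PT lay above BT549 without overlap, and this difference was not called (Log2 FC 0.60 ± 0.29, adjusted p = 0.194). COL6A1 had 7558, 8043 and 7230.4 in Hs578T, 178, 177 and 243 in BT549 and 199, 81.1 and 232 in SUM149PT. BT549 and SUM149PT overlapped for this chain (Log2 FC -0.34 ± 0.41). COL6A2, whose gene lies next to COL6A1 on chromosome 21 in the same orientation, had 196, 206 and 310.3 in Hs578T, 4.99, 5.66 and 2.81 in BT549 and no read in SUM149PT siCtrl. Hs578T was at least 189-fold higher than SUM149PT for COL6A2, with the floor again set at 3 reads over the group, and at least 103-fold without the library labelled replicate 2. The remaining type VI chains COL6A5 and COL6A6 had 1 read and 0 reads in the 18 libraries.

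The 6 type IV chains lie in the genome as 3 pairs of genes in opposite orientation whose starts are close together, and each was expressed in at least 1 line. COL4A1 and COL4A2, the chains of the widespread basement membrane network, lie on chromosome 13 at chr13:110148963-110307233 (minus strand) and chr13:110305812-110513209 (plus strand) in GRCh38 with the GENCODE 29 annotation, in which the 2 genes overlap at their starts. COL4A1 had 437, 632 and 621 normalized counts in Hs578T siCtrl, 290.3, 173 and 309 in SUM149PT and 211, 206 and 179.6 in BT549. Hs578T was called above BT549 (Log2 FC of BT549 against Hs578T -1.48 ± 0.35) and above SUM149PT (-1.15 ± 0.35), the second call not holding without the library labelled SUM149PT siCtrl replicate 2 (Log2 FC -0.89, under the limit of 1), and the other 2 lines overlapped. COL4A2 was read at 32.1, 42.4 and 21.7 in Hs578T, 7.49, 5.03 and 2.81 in BT549 and 0, 3.64 and 0 in SUM149PT, where the 4 reads all came from the library labelled replicate 2. SUM149PT was called lower than Hs578T for COL4A2 (Log2 FC -4.26 ± 0.77, limma adjusted p = 0.0031).

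COL4A3 and COL4A4 belong to the restricted network found in kidney, lung and other specialised basement membranes, and they met the limit of 10 in SUM149PT alone, COL4A3 only with the library labelled replicate 2. Their genes lie on chromosome 2 at chr2:227002711-227164453 (COL4A4, minus strand) and chr2:227164565-227314792 (COL4A3, plus strand). COL4A4 was read in 6 of 6 SUM149PT libraries, with 4.29, 31.9 and 16 normalized counts after siCtrl and 33.1, 42.3 and 63.1 after siASAP1, and it had 8 reads in all 12 libraries of the other lines. COL4A3 was read in 3 of 6 SUM149PT libraries, with 0, 33.7 and 0 after siCtrl and 33.1, 0 and 22.3 after siASAP1, and in none of the other 12. Its siCtrl reads all came from the library labelled replicate 2. COL4A5 and COL4A6 lie on the X chromosome at chrX:108439844-108697545 (plus strand) and chrX:108155607-108439497 (minus strand), and both were under the limit in SUM149PT. COL4A5 had 13.7, 22.6 and 49.8 in BT549, 0, 5.71 and 6.9 in Hs578T and 0, 3.64 and 0 in SUM149PT, and SUM149PT was called lower than BT549 (Log2 FC -3.96 ± 1.00). COL4A6 had 38.7, 17.6 and 32.3 in BT549 and 30.4, 13.9 and 22.7 in Hs578T, and its absence of reads in SUM149PT siCtrl put BT549 at least 22.2-fold and Hs578T at least 17.9-fold higher (12.1-fold and 9.8-fold without the library labelled replicate 2). Both genes of the X-linked pair were thus lower in SUM149PT than in BT549. COL4A1 was read in every siCtrl library of SUM149PT and BT549 with few COL4A2 reads (4 and 18 in all). The ratio of the 2 chains overlapped between these lines, and its level depends on the probes.

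The whole stretch between the annotated starts of COL4A4 and COL4A3 is shown because reads of both genes were found mainly in SUM149PT, with the 250 bases before the start of COL4A5, which lie between COL4A6 and COL4A5, for comparison. Sequences are from the RefSeq promoter table (GRCh38.p14), which holds 32 of the 44 chains, and capitals mark a GC box (GGGCGG) or a CCAAT box (CCAAT) on either strand.
COL4A4-COL4A3 (chr2:227164454-227164564, plus strand): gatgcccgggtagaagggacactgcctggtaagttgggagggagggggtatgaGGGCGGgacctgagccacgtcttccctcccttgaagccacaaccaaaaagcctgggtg
COL4A5 (chrX:108439588-108439837, plus strand): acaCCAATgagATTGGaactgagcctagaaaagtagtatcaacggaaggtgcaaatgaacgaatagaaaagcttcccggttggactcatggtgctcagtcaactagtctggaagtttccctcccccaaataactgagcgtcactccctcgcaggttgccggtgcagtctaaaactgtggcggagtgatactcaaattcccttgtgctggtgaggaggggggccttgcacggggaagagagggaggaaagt
The 111 bases between COL4A4 and COL4A3 had a GC content of 61.3% and held 1 GC box, and the 250 bases before COL4A5 had 51.2% and held 2 CCAAT boxes and 0 GC boxes. Among all 34788 distinct promoter windows of 250 bases, 42.6% held a GC box and 32% a CCAAT box, and the 44 windows of collagen chains (1 chain can have several) held them in 54.5% and 27.3%. A TATA box (TATAAA) was found in neither sequence. These matches describe letters and not binding.

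Of the FACIT chains that were expressed, COL12A1, COL16A1 and COL21A1, only COL16A1 separated all 3 lines. COL12A1 overlapped between SUM149PT and BT549, and COL21A1 was highest in Hs578T. COL12A1, which coats type I fibrils, had 2243, 6737 and 1945 normalized counts in SUM149PT siCtrl, 1556, 2176 and 1754 in BT549 and 729, 747 and 1274 in Hs578T. It was the only chain called higher in SUM149PT than in Hs578T (Log2 FC 1.80 ± 0.48, limma adjusted p = 0.024), and without the library labelled replicate 2, which had the highest value, the Log2 FC was 1.24 (adjusted p = 0.0151). BT549 lay above Hs578T without overlap and missed the limit with all libraries (Log2 FC 1.03 ± 0.48, adjusted p = 0.207), and it was called without the library labelled SUM149PT siCtrl replicate 2 (Log2 FC 1.03, adjusted p = 0.0264). COL16A1, found near small fibrils and at cell-matrix contacts, had 1527, 1673 and 1057 in Hs578T, 515, 278 and 452 in SUM149PT and 47.4, 108 and 104 in BT549. The 3 groups did not overlap and each step was called, with a Log2 FC of -4.08 ± 0.43 for BT549 against Hs578T, -1.79 ± 0.43 for SUM149PT against Hs578T and 2.29 ± 0.43 for SUM149PT against BT549. COL21A1 was read at 12.7, 39.2 and 24.6 in Hs578T and was read in 1 of the 12 libraries of the other lines.

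COL13A1, a transmembrane collagen of cell adhesions, had 365, 369.6 and 1035 normalized counts in Hs578T siCtrl, 58.6, 38.3 and 84.7 in SUM149PT and 1.25, 5.03 and 0.701 in BT549. The 3 groups did not overlap and the 3 differences were called, BT549 being lowest with a Log2 FC of -7.51 ± 0.68 against Hs578T. COL17A1, the hemidesmosome collagen of basal epithelial cells, was expressed in Hs578T (27, 10.6 and 33.5) and stayed lower in the epithelial-marker-positive SUM149PT (7.15, 10 and 0), where it was read in 2 of 6 libraries. That difference was not called (Log2 FC -2.32 ± 1.05, adjusted p = 0.154). COL18A1, a multiplexin and the precursor of endostatin, overlapped between the lines, with 32.4, 64.1 and 44.9 in BT549, 36.3, 26.1 and 77.8 in Hs578T and 55.8, 92 and 84.7 in SUM149PT, and none of its 3 differences was called. COL15A1, the other multiplexin, had 0, 41 and 9.59 in SUM149PT, highest in the library labelled replicate 2, and no read in Hs578T. COL8A1, a short-chain network collagen, had means of 10.9 for BT549, 12.5 for Hs578T and 8.39 in SUM149PT, too close to the limit of 10 to order the lines. COL28A1 was read in 6 of 6 BT549 libraries (26.2, 15.1 and 8.42 after siCtrl), in 1 of 6 Hs578T libraries and in none of SUM149PT.

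**Figure D2:**
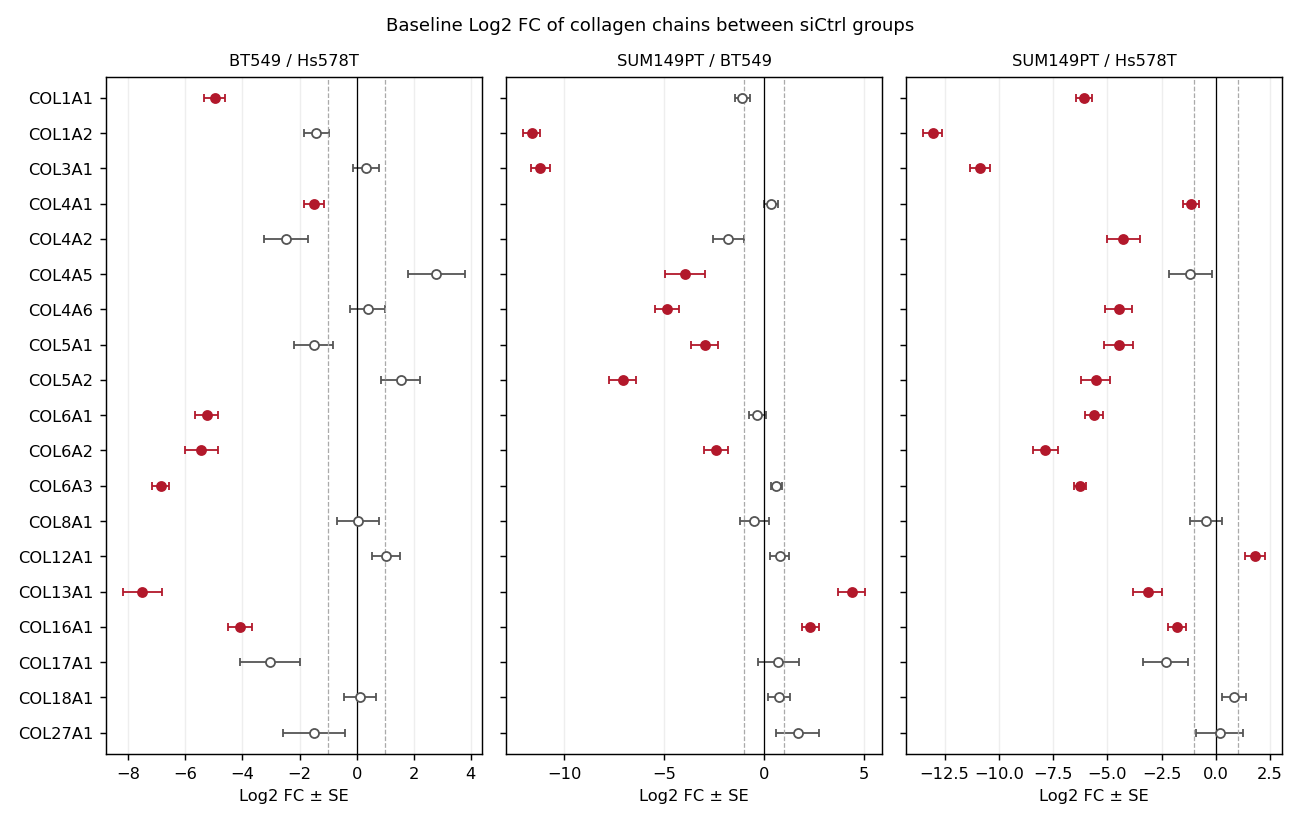
Baseline Log2 FC (x axes, scaled separately) with its SE for the 19 tested collagen chains in the 3 comparisons of siCtrl groups. Filled red points were called (limma, adjusted p under 0.05 and a Log2 FC beyond 1 in either direction), open points were not, and dashed lines mark a Log2 FC of -1 and 1. The Log2 FC of chains without reads in SUM149PT (COL6A2 and COL4A6) depends on the added count of 1. Of the 19 chains, 14 were called between SUM149PT and Hs578T.

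Across the 18 libraries, the cell line held most of the variation of the chains. For the 20 chains with a mean of at least 10 over all libraries, the median share of the variance of log2 values was 82.7% between lines, 6.50% between treatments within lines and 9.33% between replicates. The same medians over the 10475 tested probes were 38.0%, 10.4% and 44.3%, and 15 of the 20 chains (75%) had over 50% of their variance between lines, against 37.4% of all tested probes.

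The effect of siASAP1 was tested in each line against its own siCtrl, with the DEG limits of the study, namely p under 0.05 before adjustment together with a Log2 FC beyond 1 in either direction. In BT549, 5 of the 16 tested chains met these limits, 3 higher (COL6A1, COL16A1 and COL18A1) and 2 lower (COL3A1 and COL12A1), against 6.97% of all tested probes (3.28% higher and 3.69% lower). In Hs578T, 1 of 19 did so (COL5A1, higher), against 2.78% of all tested probes (1.34% higher). In SUM149PT, 2 of 15 did so (COL4A2 and COL16A1, both higher), against 9.56% of all tested probes (5.27% higher). With limma fitted to each line alone on all its libraries, 0 chains had an adjusted p under 0.05, and 5, 3 and 2 had an unadjusted p under 0.05, where 7.80%, 5.28% and 10.2% of all tested probes did. The siASAP1 and siCtrl groups did not overlap for 5 of 16, 5 of 19 and 6 of 15 tested chains, against 13.9%, 12.1% and 17.3% of all tested probes. Among all tested probes, 0 passed the adjusted limit in the 3 fits. The smallest adjusted p of a chain was 0.380 for BT549, 0.711 for Hs578T and 0.303 for SUM149PT. With voom weights on recovered reads the smallest values for chains were 0.346, 0.705 and 0.364. In a single limma fit of all 18 libraries, COL16A1 and COL4A2 had adjusted p values of 0.00403 and 0.0147 in SUM149PT, where 2.58% of all tested probes were under 0.05. Without BT549 siASAP1 replicate 1, COL12A1 (adjusted p = 0.0288), COL6A1 (0.0304), COL18A1 (0.0336) and COL3A1 (0.0402) passed in BT549, where 5.63% of all tested probes did (limma). The median Log2 FC of the tested chains was 0.105, 0.259 and 0.884, and that of all tested probes -0.00153, 0.0103 and 0.0867. The p-values measure the spread between 3 libraries a group, which the study describes as biological replicates.

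COL16A1 met the DEG limits in both BT549 and SUM149PT. In SUM149PT it had 515, 278 and 452 normalized counts after siCtrl and 3465, 1837 and 1505 after siASAP1. The lowest siASAP1 library of this line was above the highest siCtrl library, with a Log2 FC of 2.40 ± 0.46 (limma adjusted p = 0.303). Without the library labelled siCtrl replicate 2 the Log2 FC was 2.14 (adjusted p = 0.0552). In BT549 the values were 47.4, 108 and 104 after siCtrl and 190.2, 245 and 270.1 after siASAP1, again without overlap (Log2 FC 1.51 ± 0.47, limma adjusted p = 0.526). In Hs578T, which had the highest COL16A1 baseline, siCtrl gave 1527, 1673 and 1057 and siASAP1 gave 1573, 1949.7 and 1564. These groups overlapped (Log2 FC 0.28 ± 0.26, limma adjusted p = 0.928). After siASAP1 the COL16A1 probe took 41.4% of the collagen reads in SUM149PT, against 6.60% after siCtrl (12.1% without the library labelled replicate 2).

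COL12A1 had a lower mean after siASAP1 in each line and met the DEG limits in BT549. In BT549 it had 1556, 2176 and 1754 normalized counts after siCtrl and 988, 598 and 276 after siASAP1, without overlap (Log2 FC -1.73 ± 0.47, limma adjusted p = 0.459). In Hs578T it had 729, 747 and 1274 after siCtrl and 633, 513 and 526 after siASAP1. The Hs578T groups did not overlap, and the Log2 FC of -0.67 ± 0.30 was under the DEG limit on the fold (limma adjusted p = 0.923). In SUM149PT it had 2243, 6737 and 1945 after siCtrl and 2079.7, 1308 and 1773 after siASAP1, and the groups overlapped (Log2 FC -0.87 ± 0.53). There the difference came largely from the library labelled siCtrl replicate 2, without which the Log2 FC was -0.31.

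The 250 bases before the RefSeq start of COL12A1 (GRCh38.p14, minus strand) are shown because this chain and COL16A1 were called in the fit over all libraries described below, with a GC box (GGGCGG, either strand) in capitals.
COL12A1 (chr6:75206054-75206303, minus strand): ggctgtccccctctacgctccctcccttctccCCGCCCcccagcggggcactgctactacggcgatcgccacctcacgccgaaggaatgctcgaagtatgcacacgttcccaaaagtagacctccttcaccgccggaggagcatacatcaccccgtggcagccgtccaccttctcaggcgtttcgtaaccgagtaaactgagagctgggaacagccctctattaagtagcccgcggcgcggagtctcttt
This window had a GC content of 61.2% against a mean of 57.2% over all promoter windows, and it held 1 GC box and no CCAAT box, TATA box or AP-1 motif (TGANTCA). The window before COL16A1 is not printed.

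COL6A1 was higher after siASAP1 in 2 lines at an unadjusted p under 0.05. In Hs578T it had 7558, 8043 and 7230.4 normalized counts after siCtrl and 13362, 14238 and 17638 after siASAP1. These groups were far apart for their spread, and the Log2 FC of 0.98 ± 0.21 was just under the DEG limit of 1 (limma adjusted p = 0.711). In BT549 it had 178, 177 and 243 after siCtrl and 238, 714 and 623 after siASAP1, and the lowest siASAP1 library lay inside the siCtrl range (Log2 FC 1.26 ± 0.48, limma adjusted p = 0.611). In SUM149PT it had 199, 81.1 and 232 after siCtrl and 229, 547 and 188 after siASAP1, which overlapped (Log2 FC 0.88 ± 0.61). COL6A3, its partner, had Log2 FCs of 0.28, -0.15 and -0.39 in BT549, Hs578T and SUM149PT, none of which met the limits.

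The other chains that met the DEG limits did so in a single line. COL3A1 in BT549 had 4641, 2498 and 2875 normalized counts after siCtrl and 1379, 1248 and 634 after siASAP1 (Log2 FC -1.64 ± 0.41, limma adjusted p = 0.38). The second COL3A1 probe, with 238, 196 and 197 after siCtrl and 97.8, 117 and 42.9 after siASAP1, gave a Log2 FC of -1.40 ± 0.48, and the groups did not overlap with either probe. In Hs578T the first COL3A1 probe overlapped between treatments (2553, 3221 and 2033 and 2077, 3534 and 1405, Log2 FC -0.23 ± 0.35). COL18A1 in BT549 had 32.4, 64.1 and 44.9 after siCtrl and 77.3, 217 and 230.0 after siASAP1, without overlap (Log2 FC 1.77 ± 0.55). In the other lines the COL18A1 change was 0.89 ± 0.49 on the log2 scale in Hs578T and 0.13 ± 0.51 in SUM149PT, and the treatment groups overlapped. COL5A1 in Hs578T had 336, 345 and 262 after siCtrl and 713, 770.2 and 711 after siASAP1, with clearly separate groups (Log2 FC 1.23 ± 0.26, limma adjusted p = 0.711). COL5A2 gave a Log2 FC of -0.05 ± 0.41 in the same libraries. COL4A2 in SUM149PT was read 0, 4 and 0 times after siCtrl and 15, 46 and 14 times after siASAP1 (Log2 FC 4.12 ± 1.34, limma adjusted p = 0.397). Its groups did not overlap, but the fold rests on 4 control reads, all from the library labelled siCtrl replicate 2. The chain passed the filter on low counts only through its siASAP1 group. COL4A1 from the same pair gave 290.3, 173 and 309 after siCtrl and 112, 201 and 158 after siASAP1 (Log2 FC -0.70 ± 0.47), with overlap. Without the library labelled SUM149PT siCtrl replicate 2, COL4A4 (Log2 FC 2.26) and COL7A1, the anchoring fibril chain, also met the limits, when 23.4% of all tested probes did. COL7A1 was read 0, 11 and 0 times after siCtrl and 12, 8 and 19 times after siASAP1, so the other siCtrl libraries held none of its reads.

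The type I chains, which take the most reads among fibrillar collagens in BT549 and Hs578T, did not meet the limits in any line. For COL1A1 the values were 0.16 ± 0.42 (BT549), 0.41 ± 0.27 (Hs578T) and -0.08 ± 0.49 (SUM149PT) on the Log2 FC scale. COL1A2 gave -0.42 ± 0.31 in BT549, where siCtrl had 13167, 11056 and 10207 and siASAP1 7059.5, 11111 and 7948, and 0.21 ± 0.22 in Hs578T. The treatment groups of these chains overlapped in every line where they were tested. Among the rarer chains, COL4A6 in Hs578T was read at 30.4, 13.9 and 22.7 after siCtrl and 45.3, 43.4 and 52.2 after siASAP1 without overlap (Log2 FC 1.10 ± 0.51, limma adjusted p = 0.923), and COL13A1 in SUM149PT at 58.6, 38.3 and 84.7 and 103, 160.2 and 103 (Log2 FC 1.04 ± 0.54, limma adjusted p = 0.557). Neither passed the test.

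**Figure D3:**
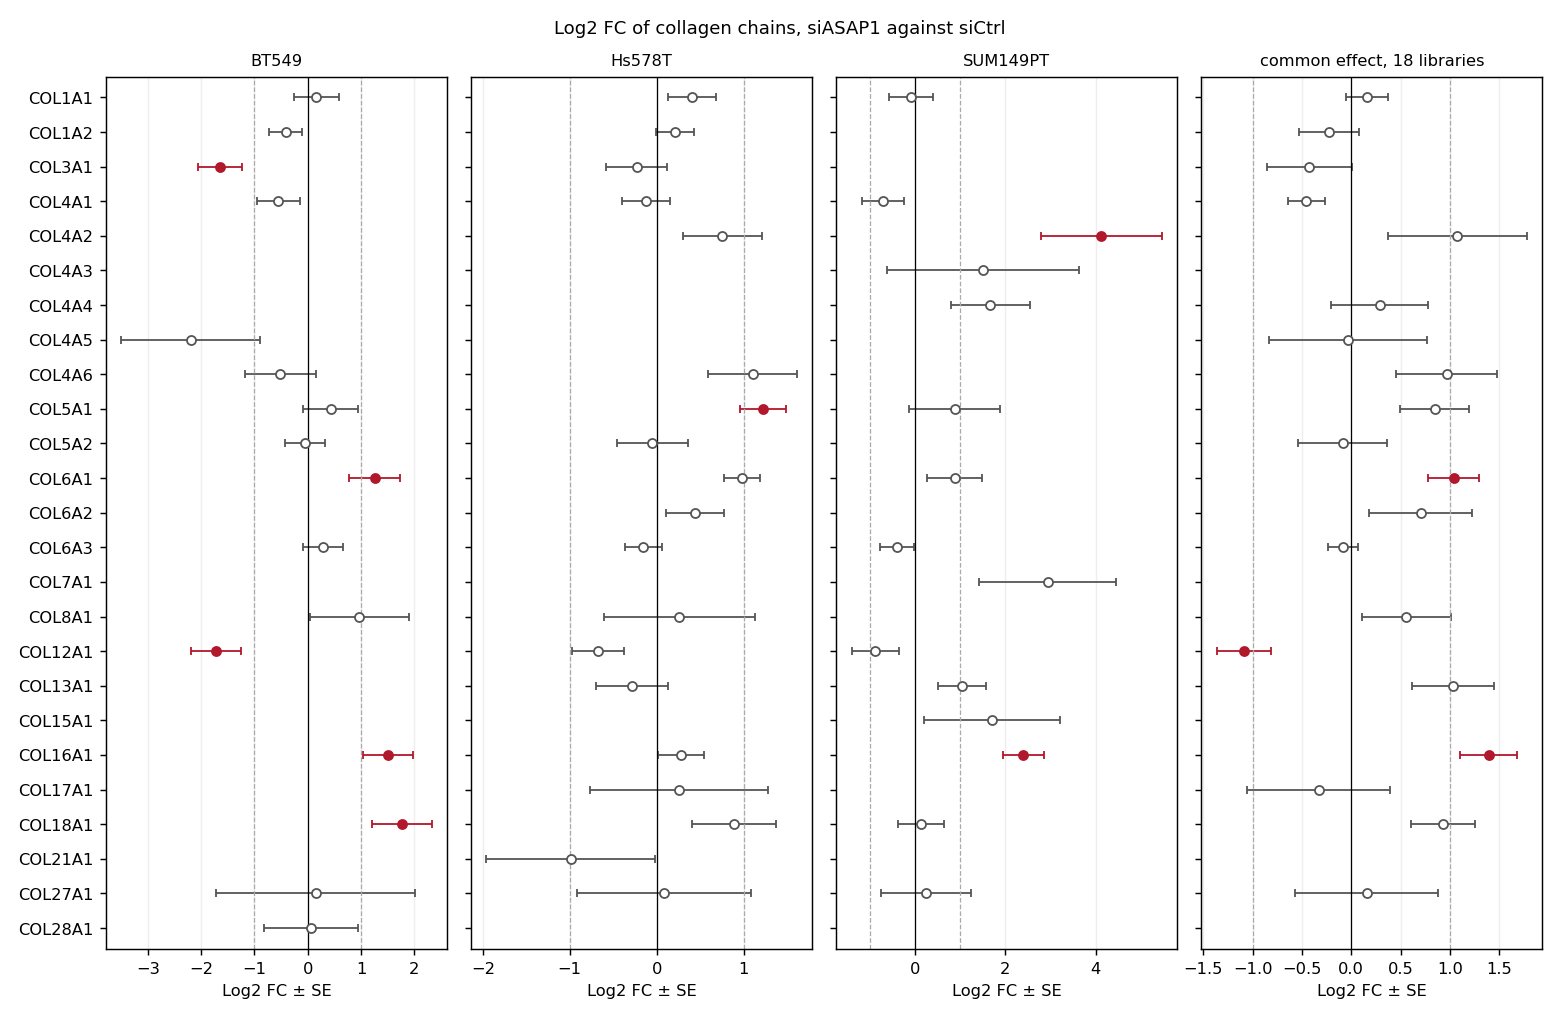
Log2 FC of siASAP1 against siCtrl (x axes, scaled separately) with its SE for each tested collagen chain in BT549, Hs578T, SUM149PT and the fit over 18 libraries. Filled red points met the DEG limits in the single lines or had an adjusted p under 0.05 in the fit over 18 libraries, and missing points were not tested because of low counts. COL16A1 is filled in BT549, in SUM149PT and over all libraries.

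The effect that the lines share was tested with limma on all 18 libraries, with a term for the line. Of 20 tested chains, 3 had an adjusted p under 0.05, against 1.74% of all 10475 tested probes (0.678% higher and 1.06% lower), and 7 had an unadjusted p under 0.05 (15.8% of all tested probes). COL16A1 was higher with a Log2 FC of 1.40 ± 0.29 (adjusted p = 0.0159), and 9 of 9 siASAP1 libraries lay above the siCtrl mean of their line. COL6A1 was higher with 1.04 ± 0.26 (adjusted p = 0.0434, 9 of 9 above), and COL12A1 was lower with -1.09 ± 0.28 (adjusted p = 0.0485, 9 of 9 below). Without the library labelled SUM149PT siCtrl replicate 2, COL16A1 remained called (Log2 FC 1.25, adjusted p = 0.024), and COL6A1 and COL12A1 did not (adjusted p = 0.0668 and 0.0725). The SUM149PT siCtrl mean of COL6A1 was then 215 normalized counts, and SUM149PT siASAP1 replicate 3 (188) lay below it. The count fell to 1 chain on leaving out any of 15 of the 18 libraries, and over 26 alternatives COL16A1 kept its call in 25, COL6A1 in 9 and COL12A1 in 6. A test of the interaction of siASAP1 with the cell line called 0 of 20 chains with limma (1 of all 10475 probes, 0.00955%), also with voom weights, and 3 chains (6.22% of all tested probes) had an unadjusted p under 0.05. These were COL4A2 (adjusted p = 0.168), COL16A1 (0.388) and COL13A1 (0.703), and COL4A2 was called without the library labelled SUM149PT siCtrl replicate 2 (adjusted p = 0.0478). A difference between the lines in the response of a chain was otherwise not shown.

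**Figure D4:**
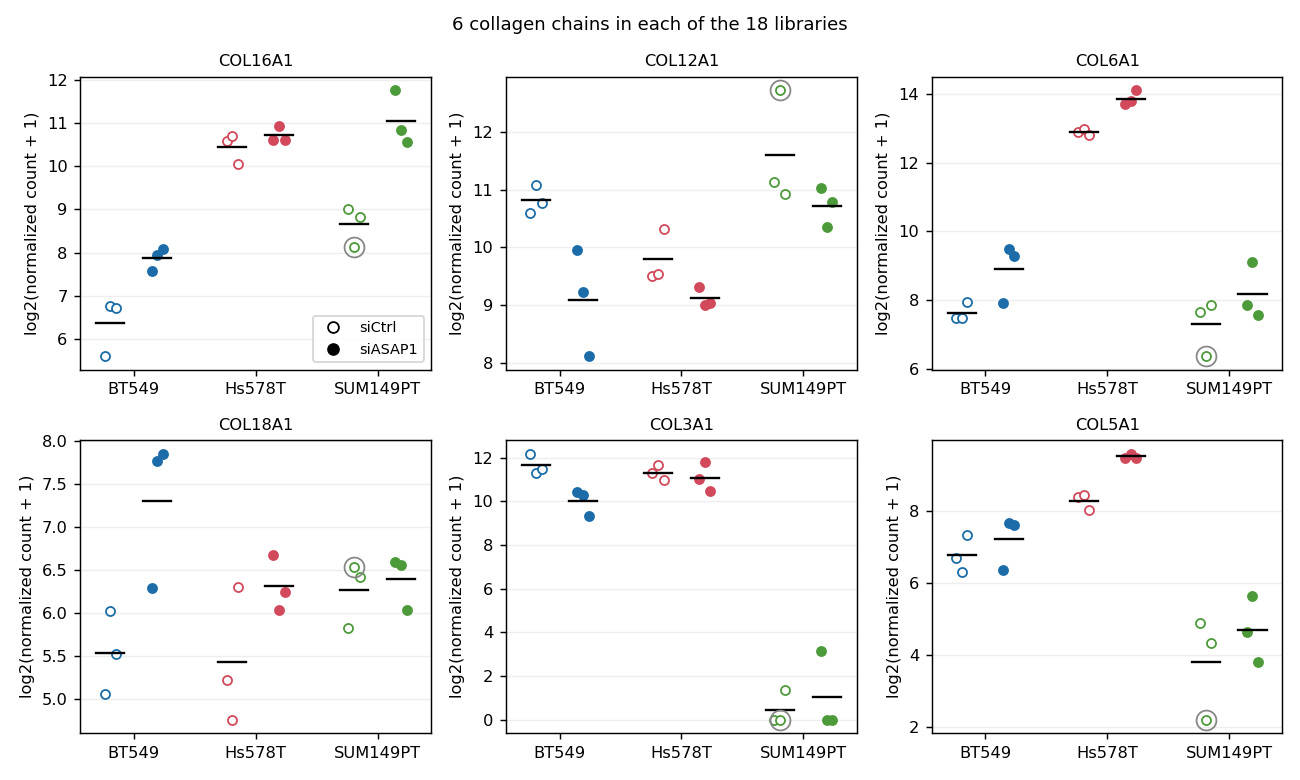
Level of 6 collagen chains in each of the 18 libraries, as log2(normalized count + 1) on y axes scaled separately. Open points are siCtrl and filled points siASAP1 libraries, bars are means of 3 libraries, colors separate the cell lines, and the grey ring marks the library labelled SUM149PT siCtrl replicate 2. The COL16A1 points after siASAP1 lie above those after siCtrl in BT549 and SUM149PT, and the ringed library has the highest COL12A1 value.

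The share of reads on collagen probes was higher after siASAP1 in Hs578T and lower in BT549. In Hs578T it was 1.27%, 1.41% and 1.23% after siCtrl and 1.55%, 1.6% and 1.65% after siASAP1. In BT549 it was 0.296%, 0.301% and 0.276% after siCtrl and 0.185%, 0.261% and 0.194% after siASAP1. In SUM149PT it was 0.0585%, 0.117% and 0.0532% after siCtrl and 0.112%, 0.0819% and 0.073% after siASAP1. The groups of Hs578T and BT549 did not overlap, and an exact two-sided permutation test gave p = 0.1 in each, the smallest that 3 libraries against 3 allow. In SUM149PT the exact permutation p was 0.6, and without the library labelled siCtrl replicate 2 it was 0.2, where 0.1 is again the smallest possible. In Hs578T the COL6A1 probe took 7.94% of the collagen reads after siCtrl and 13.5% after siASAP1, and in BT549 that of COL3A1 took 16.9% and 8.34%.

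Chains that can join the same trimer were compared through the log2 ratio of their probes within each library, which cancels library scaling, and only changes of a ratio are read since its level depends on the probes. The 5 pairs were chosen after their values were seen. For COL6A1 over COL6A3, the ratio was -2.25 ± 0.18 (SD) after siCtrl and -1.12 ± 0.22 after siASAP1 in Hs578T, a difference of 1.13 without overlap. The difference was 1.27 in SUM149PT, also without overlap, and 0.98 in BT549, with overlap. Without the library labelled SUM149PT siCtrl replicate 2, the SUM149PT difference was 0.72 and the groups nearly touched. The remaining siCtrl ratios were -1.08 and -1.01, and the siASAP1 ratios were -0.829, 0.847 and -0.991, the highest from siASAP1 replicate 2. For COL4A1 over COL4A2, the ratio differed by -4.82 in SUM149PT and -0.88 in Hs578T, both lower after siASAP1 without overlap (the first set by the count of 1 added to siCtrl libraries with 4 COL4A2 reads in all, and -5.82 without the library labelled replicate 2), and by 1.10 in BT549, with overlap. For COL5A1 over COL5A2, it was higher by 1.28 in Hs578T without overlap. At baseline the ratio of COL1A1 to COL1A2 was -4.75 for BT549, -1.18 for Hs578T and 5.79 in SUM149PT, the last resting on 9 COL1A2 reads (6.63 without the library labelled replicate 2), and these 3 groups did not overlap. Over 30 comparisons of ratios, the smallest exact permutation p was 0.1, the smallest that 3 against 3 libraries allow, and the smallest adjusted p was 0.2, so none could pass.

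**Figure D5:**
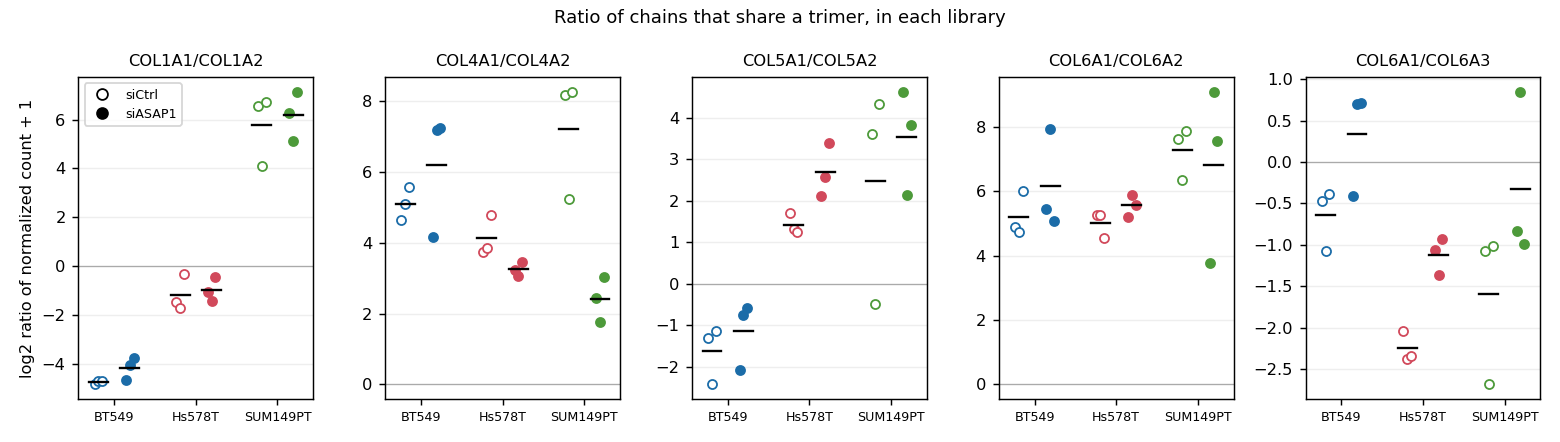
Log2 ratio (y axes, scaled separately) of 5 pairs of collagen chains that can share a trimer, in each of the 18 libraries. Open points are siCtrl, filled points siASAP1, bars are means of 3 libraries, and the grey line marks a ratio of 1. COL6A1 over COL6A3 is higher after siASAP1 without overlap in Hs578T and SUM149PT, and COL1A1 over COL1A2 separates the 3 lines.

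The genes that make, cross-link, bind and degrade collagen were taken from lists written for this purpose. In the group of 19 genes for chain modification and folding, 12 were tested at baseline, and 6 were called lower and 0 higher in SUM149PT than in BT549, where 8.76% of all tested probes were called lower. They included P4HA1 and P4HA2, catalytic subunits of prolyl 4-hydroxylase (Log2 FC -2.18 and -1.57), and SERPINH1, the collagen chaperone HSP47 (-1.90). Of the 12, 5 were lower in SUM149PT than in Hs578T and 0 higher, against 10.5% of all tested probes called lower, and 1 (P3H2, higher) was called between BT549 and Hs578T, against 6.26% called higher. With that SUM149PT siCtrl library (replicate 2) left out, 13 were tested, and 8, 6 and 1 were called in the same directions and order of comparisons. The share of all tested probes called in either direction was then 33.2%, 30.7% and 21.3%, where it was 18.2%, 20.2% and 13.8% with all libraries. Among 8 fibril-associated partners, 6 were tested, and 5 were called lower in SUM149PT than in Hs578T, again against 10.5% of all tested probes, including SPARC, a collagen-binding glycoprotein, with 13278, 19055 and 12505 normalized counts in Hs578T siCtrl and 7.15, 3.64 and 3.2 in SUM149PT siCtrl. LOX, which cross-links fibrils, was highest in BT549 with 25455, 21995 and 17888 normalized counts after siCtrl, against 1135, 2579 and 1985 in Hs578T and 632, 1187 and 612 in SUM149PT. LOXL1 had the reverse order between the mesenchymal-like lines (Log2 FC of BT549 against Hs578T -4.23 ± 0.32, against 3.58 ± 0.40 for LOX). The discoidin receptors that bind collagen split the lines, with DDR1 higher in SUM149PT than in BT549 and Hs578T (Log2 FC 3.21 and 2.79) and DDR2 at 223, 189 and 279.9 in BT549, 229, 265 and 181 in Hs578T and 0 in the 3 SUM149PT siCtrl libraries.

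After siASAP1, few of these genes met the DEG limits. In chain modification and folding, 2 of 13 tested genes were lower in BT549 (P4HA1 and P3H2), 0 of 14 in Hs578T and 2 of 13 in SUM149PT (P3H1 and P3H2), and none was higher, against 3.69%, 1.44% and 4.29% of all tested probes called lower. Without the library labelled SUM149PT siCtrl replicate 2, 12 of these genes were tested in SUM149PT. Then 4 were lower (P4HA1, P3H1, P3H2 and FKBP10) and 2 higher (PLOD2 and FKBP14), when 23.4% of all tested probes met the limits in either direction. P4HA1 in BT549 had 1213, 766 and 826 normalized counts after siCtrl and 277, 206 and 159 after siASAP1 (Log2 FC -2.13 ± 0.39, limma adjusted p = 0.166). P3H2, a prolyl 3-hydroxylase, had 981, 759.6 and 572 after siCtrl and 452, 291 and 201 after siASAP1 in BT549, and 83, 86.6 and 81.5 and 38.4, 20.5 and 26.3 in SUM149PT. Over 18 libraries it was lower with a Log2 FC of -1.29 ± 0.29 (limma adjusted p = 0.0245, 9 of 9 siASAP1 libraries below the siCtrl mean of their line). LOX was likewise lower over 18 libraries (Log2 FC -1.07 ± 0.21, limma adjusted p = 0.0106, 9 of 9 below), from 632, 1187 and 612 to 288, 277 and 317 in SUM149PT, where it met the DEG limits. FN1, fibronectin, was higher over 18 libraries (Log2 FC 1.04 ± 0.26, limma adjusted p = 0.0477) and in SUM149PT, where siCtrl had 973, 753 and 836 and siASAP1 4322, 5346 and 3493. Without the library labelled SUM149PT siCtrl replicate 2, P3H2 and LOX stayed called over the remaining libraries (adjusted p = 0.0423 and 0.0139) and FN1 did not (0.0746). Of the other lists, SEC31A, a coat protein of procollagen export, was lower in BT549 (Log2 FC -1.09 ± 0.39) and MIA3, an export receptor, higher in Hs578T (1.41 ± 0.63). PCOLCE2, an enhancer of propeptide removal, was lower in BT549 (-1.29 ± 0.51), as was the fibril-binding proteoglycan LUM, which had 47.4, 6.92 and 8.42 normalized counts after siCtrl and 0, 0.944 and 0 after siASAP1. LUM passed the filter on low counts only through its siCtrl group, and mainly through 1 library (47.4). Among the receptors, DDR1 was higher in Hs578T (1.14 ± 0.41) and the integrin chain ITGA2 higher in SUM149PT, with 0, 3.64 and 0 after siCtrl and 42.3, 7.69 and 15.8 after siASAP1. ITGA2 passed the filter on low counts only through its siASAP1 group and was near 0 after siCtrl. The collagenases MMP1 (BT549 and Hs578T) and MMP14 (BT549) were higher, with 72.6, 205 and 218 normalized counts of MMP1 after siCtrl and 535, 635 and 1043 after siASAP1 in Hs578T. Among the markers of cell state, SNAI2, a mesenchymal transcription factor, was lower in BT549 (Log2 FC -1.57 ± 0.34) and higher in SUM149PT (1.48 ± 0.43), and its interaction with the line was called (limma adjusted p = 0.00647). VIM, the mesenchymal filament protein, was lower and CDH1, the epithelial cadherin, higher in SUM149PT (Log2 FC -1.48 ± 0.36 and 1.24 ± 0.42), and EPCAM was higher in Hs578T (1.42 ± 0.61). CDH1 was 1 of 8 tested epithelial markers in SUM149PT, whose median Log2 FC was -0.00762. Of 6 tested mesenchymal markers there, 1 was lower and 1 higher, against 4.29% and 5.27% of all tested probes. EPCAM was 1 of 4 tested epithelial markers in Hs578T, where 1.34% of all tested probes were higher. None of the listed genes had an adjusted p under 0.05 within a line in the limma fit of that line on all its libraries, and without the library labelled SUM149PT siCtrl replicate 2 the SUM149PT genes named here still met the DEG limits and the SNAI2 interaction had an adjusted p of 0.0121. Without that library, SEC31A and TFG of procollagen export and the receptor chains ITGA1 and ITGB1 also met the DEG limits in SUM149PT, all higher. TGFBI of the fibril-associated partners did so as well, lower. Of the epithelial markers, KRT18 and KRT19 did so too, both lower, when 23.4% of all tested probes did. The part of such marker changes in the collagen values was not tested.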

How the data were processed

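Expression was measured by TempO-Seq in 18 libraries, made from BT549, Hs578T and SUM149PT cells after siASAP1 or siCtrl (50 nM, 72 h), with 3 libraries a group. The deposited values are log2 of the normalized count plus 1 for 21111 probes, for which the authors divided read counts by DESeq2 size factors; their processing notes also name bcl2fastq and Bowtie, without versions, and the genome build is not given in the sources used here. Raising 2 to each value and subtracting 1 gave whole multiples of 1 step per library in 100% of values (tolerance 0.02 reads), from which read counts and library totals (4.63 to 12.5 M) were recovered; intervals and floors from them cover counting error only. A floor is 3 reads over a group.

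Samples were grouped by their labels. Since the authors deposited log2 values, groups were compared with limma 3.58.1 in R 4.3.3 (lmFit and eBayes with a trend), with Benjamini-Hochberg adjustment over all tested probes, a probe being tested where its normalized counts averaged 10 or more over the libraries compared. Each line was fitted alone for siASAP1 against siCtrl, the 9 siCtrl libraries together for baseline, and the 18 libraries with a term for the line for the shared effect and the interaction. A Log2 FC is on the log2(normalized count + 1) scale, which understates changes of low genes, and ± is the SE unless SD is stated. Probes were used singly. Single values were compared by exact permutation tests. Alternatives were TMM scaling, library totals alone, other filters (none, or 50), a pseudocount of 0.1, voom weights on recovered reads, a replicate block, 1 fit of all 18 libraries, summed probes and leaving out each library. Count models were not run. The scripts were tested on simulated data.

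The collagen chains, the gene lists and the tests were chosen with earlier results of these data known. Named are the chains expressed in at least 1 line or called in a comparison, the listed genes that met the DEG limits or were called over 18 libraries, and examples of the listed genes called at baseline. Positions are from GENCODE 29 (GRCh38) and promoter sequences from RefSeq.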

Additional observations from a re-analysis of the deposited data

How the results depend on the processing

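Of the counts of called chains, that of siASAP1 in BT549 stayed at 5 under all 9 alternatives other than leaving out a library, and no result changed direction under any alternative run. In Hs578T the count of 1 became 3 with library totals alone (COL4A6, COL5A1 and COL6A1), and 0 in a single fit of all 18 libraries. In SUM149PT the count of 2 became 1 at a minimum mean of 50, under which COL4A2 is not tested. For the effect shared by the lines, the count of 3 became 1 without a filter on low values and 0 with the replicate number as a replicate block, where the smallest adjusted p of a chain was 0.0715 (limma). At a minimum of 50, 12 chains were expressed in Hs578T and 8 in SUM149PT. Leaving out 1 library gave 4 to 7 chains in BT549, 1 to 2 in Hs578T and 1 to 4 in SUM149PT for siASAP1, 6 to 14 for BT549 against Hs578T, 7 to 10 for SUM149PT against BT549 and 10 to 14 for SUM149PT against Hs578T. It gave 1 to 3 chains for the shared effect, 0 to 1 for the interaction, and 15 to 16, 18 to 19 and 13 to 13 expressed chains in BT549, Hs578T and SUM149PT. The share of all tested probes called moved too. It was 22.5% where BT549 had 7 chains, and 3.44% to 5.37% where it had 4. In SUM149PT it was 23.4% at 4 chains and 11.4% at 1. For BT549 against Hs578T it was 21.3% at 14 chains, and for SUM149PT against Hs578T 13.4% at 10. The cause of these changes was not tested. Scaling by library totals alone put the median of all tested probes at a log2 difference of 0.12 in Hs578T, 0.30 in SUM149PT, 0.15 over the lines, 0.21 for BT549 against Hs578T and -0.20 for SUM149PT against BT549, and TMM put the last at -0.11.

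The replicate numbers were not taken to pair the samples, since no line had all 3 correlations over 0.1, although Hs578T came close: same-numbered siCtrl and siASAP1 libraries deviated from their group means with correlations of -0.390 to 0.140 in BT549, 0.0998 to 0.422 in Hs578T and -0.658 to -0.325 in SUM149PT, and a library correlated best with its own number in 1 of 3, 3 of 3 and 0 of 3 cases. With the replicate block, 5, 1 and 2 chains were called for siASAP1 in BT549, Hs578T and SUM149PT, and in Hs578T COL5A1 and COL6A1 had an adjusted p under 0.05 (0.0347 for COL5A1, limma), as 0.389% of all tested probes did. Chains near the limit of 10 rest on few reads, and a difference in them was often not detectable at this depth.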
